A study of Mus musculus with 36 samples.

Results

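The heat shock chaperones followed here were 10 genes, Hspa1a, Hspa1b, Hspa2, Hsph1, Dnajb1, Hspb1, Hsp90aa1, Hspa8, Hspe1 and Hspd1, taken by symbol out of 27562 genes in a table of expression values. The table gave FPKM, mapped fragments scaled to transcript length and to the fragments mapped in each library, for 36 RNA-seq libraries of lung alveolar macrophages (AΦ) and lung monocytes in 12 groups of 3 libraries. All mice were lung-shielded chimeras: young adult male C57BL/6J hosts (CD45.2) were irradiated with the chest under lead, given busulfan and transplanted with marrow of B6.SJL-Ptprca Pepcb/BoyJ donors (CD45.1), so that CD45.2 AΦ were tissue-resident (TR-AΦ) and CD45.1 AΦ were bone marrow-derived (BM-AΦ). The mice then breathed concentrated ambient fine particles (PM2.5) or filtered air (FA) for 4 or 32 weeks. Irradiation, busulfan and transplantation were shared by the FA controls, so no library came from an unmanipulated mouse. At 4-weeks the libraries were FA and PM2.5 TR-AΦ and FA and PM2.5 CD45.2 monocytes. At 32-weeks they were FA and PM2.5 libraries of TR-AΦ, BM-AΦ, CD45.2 monocytes and CD45.1 monocytes, the monocyte origins being read from the same numbering of the labels as the AΦ origins. The CD45.2 monocytes came from hosts in which nearly all blood monocytes were of donor origin. They can be remaining host monocytes or other host cells of the shielded lung that fell within the monocyte gate. The 3 libraries of a group are numbered 0, 1 and 2, as labelled. The study took 3 mice for each exposure and time, so AΦ and monocytes, and cells of either origin, share animals. The labels do not say which libraries share a mouse, and the tests between cell types and origins treat all libraries as separate samples.

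Chaperones hold unfolded or partly folded proteins and help them to fold, to be assembled or to be passed on for degradation. Most of the 10 genes are targets of heat shock factor 1, a transcription factor that is kept inactive by chaperones and released when unfolded proteins draw those chaperones away, as in heat, oxidative stress or exposure to metals. Hspa1a and Hspa1b encode the stress-inducible cytosolic Hsp70, Hspa8 the constitutive cytosolic Hsp70 and Hspa2 an Hsp70 best known from the testis. Dnajb1 encodes Hsp40, a J-domain protein that stimulates the ATPase of Hsp70, and Hsph1 encodes Hsp110, which releases nucleotide from Hsp70. Hsp90aa1 encodes the inducible cytosolic Hsp90, Hspd1 and Hspe1 the mitochondrial chaperonin Hsp60 and its lid Hsp10, and Hspb1 the small heat shock protein Hsp25, which binds unfolded proteins without ATP. Alveolar macrophages take up inhaled particles, and dissociating and sorting a tissue is itself known to raise heat shock and immediate early transcripts in many cell types.

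The inducible Hsp70 genes are near-copies, and their sequences are shown because they bear on how far their FPKM can be read apart. In the table's coordinates (mm10), Hspa1a (ENSMUSG00000091971.3) lies at chr17:34969190-34972156 and Hspa1b (ENSMUSG00000090877.3) at chr17:34956436-34959238, with 9951 bases between the gene models. Their coding sequences were identical in 1919 of 1929 aligned positions (99.5%), while the 3′ untranslated parts were 54.8% identical, and 63.8% of the 31-base words of Hspa1a occurred in Hspa1b. The division of reads between them is therefore uncertain. Their sum is given for the levels, the library numbers and the change with time. Elsewhere, and in counts of members, both genes are taken separately. The 300 bases around the start sites (250 before and 50 after, RefSeq, GRCm38.p6) were identical in 296 positions, and the differences were C44T, T47C, T249G and C276T, counted from 1 at the 5′ end with Hspa1a as the reference. The 120 bases before each start are printed below, both on the minus strand, Hspa1a from chr17:34972157-34972276 and Hspa1b from chr17:34959239-34959358, and capitals mark GAANNTTC, an arrangement of the heat shock element, at position -104.
Hspa1a: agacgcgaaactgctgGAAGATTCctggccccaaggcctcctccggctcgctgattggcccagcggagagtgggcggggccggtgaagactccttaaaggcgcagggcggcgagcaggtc
Hspa1b: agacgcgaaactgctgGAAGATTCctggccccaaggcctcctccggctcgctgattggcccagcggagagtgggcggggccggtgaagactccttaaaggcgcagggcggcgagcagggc

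Heat shock factors bind alternating inverted repeats of nGAAn, so the RefSeq promoter windows were searched for GAANNTTC and TTCNNGAA. Each of these is its own reverse complement, so a search of 1 strand covers both. RefSeq windows were matched for 8 of the 10 genes, all but Hspa8 and Hsp90aa1, and 6 of the 8 held at least 1 match, against 15.1% of all 32851 promoter windows (7.86% for GAANNTTC, 8.52% for TTCNNGAA). Neither arrangement was found in the windows of Dnajb1 and Hspa2. A match describes letters and is not evidence of binding. The matches before the start site of 3 further genes are printed with capitals marking them: Hsph1 (minus strand, chr5:149636337-149636396, match at -33), Hspe1 (plus strand, chr1:55088038-55088097, run starting at -89) and Hspb1 (plus strand, chr5:135887789-135887848, matches at -117 and -97).
Hsph1: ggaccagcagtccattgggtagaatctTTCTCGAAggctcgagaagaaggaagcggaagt
Hspe1: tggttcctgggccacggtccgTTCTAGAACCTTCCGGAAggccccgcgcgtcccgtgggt
Hspb1: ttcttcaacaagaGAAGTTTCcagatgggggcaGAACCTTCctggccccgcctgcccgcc
The capitals in Hspe1 are an unbroken run of 3 overlapping matches, TTCNNGAA, GAANNTTC and TTCNNGAA. Windows with both arrangements overlapping in 13 bases made up 0.603% of all promoters. Hsph1 held such a pair too, not printed, with TTCNNGAA starting 36 and GAANNTTC 41 bases after the start site. The run of Hspe1 also lies in a promoter window of Hspd1, since Hspe1 and Hspd1 stand head to head with 107 bases between their models in the table's coordinates.

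Of the other members, Dnajb1 (chr8:83608175-83611902), Hsph1 (chr5:149614287-149636338), Hspa8 (chr9:40800984-40805200), Hsp90aa1 (chr12:110690605-110696395), Hspd1 (chr1:55077835-55088024), Hspe1 (chr1:55088132-55091307), Hspa2 (chr12:76404176-76406934) and Hspb1 (chr5:135887919-135889563) had no close copy among the members. Named pseudogenes are annotated for Hspd1 (5, of which 1 is in the table) and Hspe1 (6, of which 2 are in the table), and the values of these genes may include or lack reads from them. In the GENCODE M21 annotation, where the Hspd1 model has other ends than in the table, the exons of Hspd1 and Hspe1 overlap by 112 bases on opposite strands, and 564 exon bases of Hspa1a lie opposite Gm20481. The library kit keeps the strand, but how strand was used in quantification is not given in the sources used here. Small nucleolar RNA genes (Snord14c, Snord14d, Snord14e) lie within exons of Hspa8 on the same strand.

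The sorted cell types carried their own markers. The summed FPKM of 12 AΦ markers was 6883 to 14379 in AΦ and 283 to 1719 in monocytes, and that of 10 monocyte markers was 1503 to 4203 in monocytes and 35.8 to 242 in AΦ. Between 15171 and 18244 genes were above 0 per library. FPKM keeps no read counts, so the depth behind each value is unknown. Low values gave only the libraries' relative depth, from 0.537 to 1.69 times that of the FA TR-AΦ library number 0 at 4-weeks. Libraries number 2 of the 4-weeks groups stood apart in markers of other cells. The PM2.5 TR-AΦ library number 2 had the highest interstitial macrophage sum of the AΦ at 4-weeks (569, the others 36.4 to 190) and the highest neutrophil sum (60.1, the others 8.73 to 28.8), with a monocyte sum of 196, second to the FA library number 2 (242, the others 35.8 to 49.3). Among 4-weeks monocytes, neutrophil sums were 1047 in PM2.5 number 2 and 343 in FA number 2, against 24.6 to 51.8 in the others, and interstitial macrophage sums were 3.53 and 2.85, against 158 to 406. At 32-weeks the interstitial macrophage sum was 858 to 3290 in CD45.2 monocytes and 308 to 1022 in CD45.1 monocytes, above the 2.85 to 406 of CD45.2 monocytes at 4-weeks, and 18.4 to 71.8 in TR-AΦ and 39.2 to 314 in BM-AΦ. The part of these cells in the chaperone values was not tested. Results that rest on the PM2.5 TR-AΦ library number 2 are given with and without it.

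The 10 genes covered a wide range of levels. In the 18 AΦ libraries the mean FPKM was 256 for Hspa8, 68.3 for Hsp90aa1, 40.8 for Hspd1, 34.2 for Dnajb1, 24.01 for Hsph1, 18.4 for Hspe1, 7.14 for Hspa2 and 0.676 for Hspb1. In the 18 monocyte libraries it was 228 for Hspa8, 76.02 for Hsp90aa1, 48.3 for Dnajb1, 23.4 for Hspd1, 20.5 for Hsph1, 13.2 for Hspe1, 12.4 for Hspa2 and 0.754 for Hspb1, so that Hspd1 stood above Dnajb1 in AΦ and below it in monocytes. Hspa1a and Hspa1b, whose order to each other is uncertain, had means of 37.9 and 50.3 in AΦ and 84.3 and 119 in monocytes. FPKM is per length, so these levels can be set side by side. Hspb1 was listed at 0 in 18 of 36 libraries and was above 1 FPKM in 6. It fell under the minimum mean of 1 FPKM used for testing, so 9 of the 10 members were tested. In each gene the 12 group means were ordered from high to low, and in all 11 neighbouring pairs of every order the ranges of the groups overlapped. The sum of Hspa1a and Hspa1b had its highest group mean in PM2.5 CD45.2 monocytes at 4-weeks (434 ± 494 FPKM, SD, n = 3) and its lowest in PM2.5 TR-AΦ at 32-weeks (10.8 ± 7.27 FPKM, SD, n = 3).

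The inducible Hsp70 genes varied widely among libraries of the same group. In TR-AΦ at 4-weeks, Hspa1a was 24.3, 22.0 and 69.2 FPKM in FA libraries 0, 1 and 2, and 21.7, 14.4 and 425 FPKM in PM2.5 libraries. Hspa1b gave 23.0, 39.1 and 73.4 FPKM with FA and 23.5, 18 and 598 FPKM in PM2.5. In both genes the number 2 library of PM2.5 was far above the rest, while its companions 0 and 1 lay below most FA libraries, so the groups overlapped. At 32-weeks TR-AΦ held 13.5, 3.13 and 8.66 FPKM of Hspa1a in FA and 3.20, 8.30 and 3.29 FPKM in PM2.5. For Hspa1b the TR-AΦ values at 32-weeks were 22.1, 3.61 and 8.03 FPKM with FA and 4.25, 10.9 and 2.57 FPKM in PM2.5. Every TR-AΦ library at 32-weeks was thus below every TR-AΦ library at 4-weeks for Hspa1a, and for Hspa1b the ranges overlapped through FA number 0. BM-AΦ at 32-weeks had 28.3, 4.71 and 8.999 FPKM of Hspa1a in FA and 7.15, 13.2 and 3.24 FPKM in PM2.5, with the highest library again number 0 in FA and number 1 in PM2.5.

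Monocytes held more of both transcripts than most AΦ. Hspa1a in CD45.2 monocytes at 4-weeks was 103, 41.8 and 105 FPKM with FA and 104, 30.9 and 312 FPKM in PM2.5, and Hspa1b was 134, 81.2 and 227 FPKM with FA and 139, 33.9 and 684 FPKM in PM2.5. As in TR-AΦ, the highest of these libraries was PM2.5 number 2. At 32-weeks Hspa1a was 89.8, 112 and 58.9 FPKM with FA and 40.6, 139 and 21.7 FPKM in PM2.5 CD45.2 monocytes, and 126, 21.4 and 55.8 FPKM with FA and 35.3, 97.4 and 23.3 FPKM in PM2.5 CD45.1 monocytes. FA and PM2.5 monocytes overlapped at either time.

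**Figure D1:**
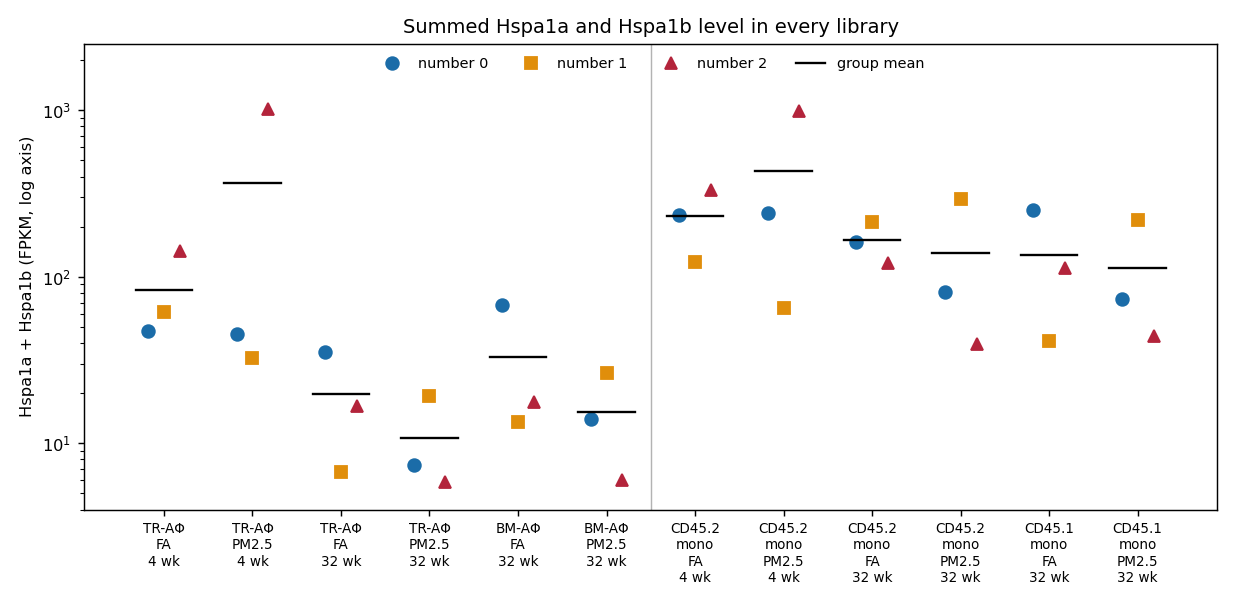
Summed FPKM of Hspa1a and Hspa1b on a log axis in all 36 libraries, by cell type, exposure and weeks, with symbols for the library numbers 0, 1 and 2 and a bar for each group mean. The number 2 libraries of PM2.5 at 4-weeks are the highest in TR-AΦ (1023 FPKM) and in monocytes (996 FPKM), and the TR-AΦ libraries at 32-weeks lie between 5.86 and 35.5 FPKM.

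The partners of Hsp70 followed the same libraries in some groups only. Dnajb1 in TR-AΦ at 4-weeks was 29.8, 46.7 and 48.2 FPKM with FA and 33.6, 32.8 and 168 FPKM in PM2.5, and at 32-weeks it was 23.7, 20.1 and 22.2 FPKM with FA and 21.9, 17.9 and 16.8 FPKM in PM2.5. Hsph1 gave 17.4, 39.7 and 19.3 FPKM with FA and 21.1, 34.6 and 113 FPKM in PM2.5 TR-AΦ at 4-weeks, and 26.5, 10.1 and 10.2 FPKM with FA and 6.99, 25.3 and 8.37 FPKM in PM2.5 TR-AΦ at 32-weeks. The PM2.5 library number 2 at 4-weeks was highest for both, and the times were separated for Dnajb1 but overlapped for Hsph1. In CD45.2 monocytes at 4-weeks, Hsph1 reached 105 FPKM in PM2.5 number 2, against 25.8 and 12.6 FPKM in PM2.5 numbers 0 and 1.

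The constitutive Hsp70 and the inducible Hsp90 were abundant throughout. Hspa8 ranged from 254 to 652 FPKM (median 366) in the 6 TR-AΦ libraries at 4-weeks, from 124 to 306 FPKM (median 130) in TR-AΦ at 32-weeks and from 120 to 337 FPKM (median 133) in BM-AΦ at 32-weeks. Its highest library at 4-weeks was PM2.5 number 1 (652 FPKM) and not number 2 (504 FPKM), unlike the inducible genes. In monocytes Hspa8 lay between 153 and 333 FPKM. Hsp90aa1 in CD45.2 monocytes was 106, 125 and 142 FPKM with FA and 86.7, 75.7 and 240 FPKM in PM2.5 at 4-weeks, and 32.1, 75.6 and 54.3 FPKM with FA and 36.04, 70.5 and 45.7 FPKM in PM2.5 at 32-weeks. The lowest 4-weeks library (75.7 FPKM) was just above the highest 32-weeks library (75.6 FPKM). In TR-AΦ at 4-weeks Hsp90aa1 was 63.1, 79.3 and 226 FPKM in PM2.5, and again number 2 was highest.

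The mitochondrial chaperonin genes lay in narrower ranges. Hspd1 was 32.3 to 63.2 FPKM (median 39.8) in TR-AΦ at 4-weeks, 25.2 to 43.1 FPKM (median 39.1) in TR-AΦ at 32-weeks and 33.5 to 55.96 FPKM (median 42.2) in BM-AΦ. Hspe1 was 19.2 to 27.7 FPKM (median 21.0) in TR-AΦ at 4-weeks and 11.97 to 26.05 FPKM (median 16.3) in TR-AΦ at 32-weeks. Hspa2 in TR-AΦ at 4-weeks was 5.23, 5.29 and 5.31 FPKM with FA and 10.47, 6.47 and 14.02 FPKM with PM2.5. The groups did not overlap for this gene, alone among the 9 tested members, against 5.82% of all genes. Hspb1 had its highest value, 8.51 FPKM, in the PM2.5 TR-AΦ library number 2 at 4-weeks, where the other 5 TR-AΦ libraries were listed at 0 or at 0.187 FPKM. Its next highest values were 4.24 FPKM in PM2.5 CD45.2 monocytes number 1, 2.03 FPKM in PM2.5 BM-AΦ number 1 and 2.003 FPKM in FA CD45.2 monocytes number 0, all at 32-weeks.

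Within groups the inducible genes moved together from library to library. Each library's deviation from its group mean was taken on the log2(FPKM + 1) scale, and the mean deviation of Hspa1a, Hspa1b, Dnajb1 and Hsph1 served as the reference, with the gene itself left out where it was part of it. Over 36 libraries Pearson's r with the reference was 0.98 for Hspa1b, 0.95 for Hspa1a, 0.81 for Hsp90aa1, 0.80 for Dnajb1, 0.79 for Hsph1 and 0.72 for Hspb1. It was 0.57 for Hspd1, 0.56 for Hspa8, 0.49 for Hspa2 and 0.41 for Hspe1. The reference for Hspa1a and for Hspa1b still held the other near-copy. The median over 13307 genes was 0.0601. Without both PM2.5 libraries number 2 of 4-weeks, r over the other 34 was 0.96 for Hspa1b, 0.91 for Hspa1a, 0.74 for Dnajb1, 0.72 for Hsph1 and 0.66 for Hsp90aa1. These values describe the libraries and have no test, since genes measured in the same library share its composition and its handling.

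**Figure D2:**
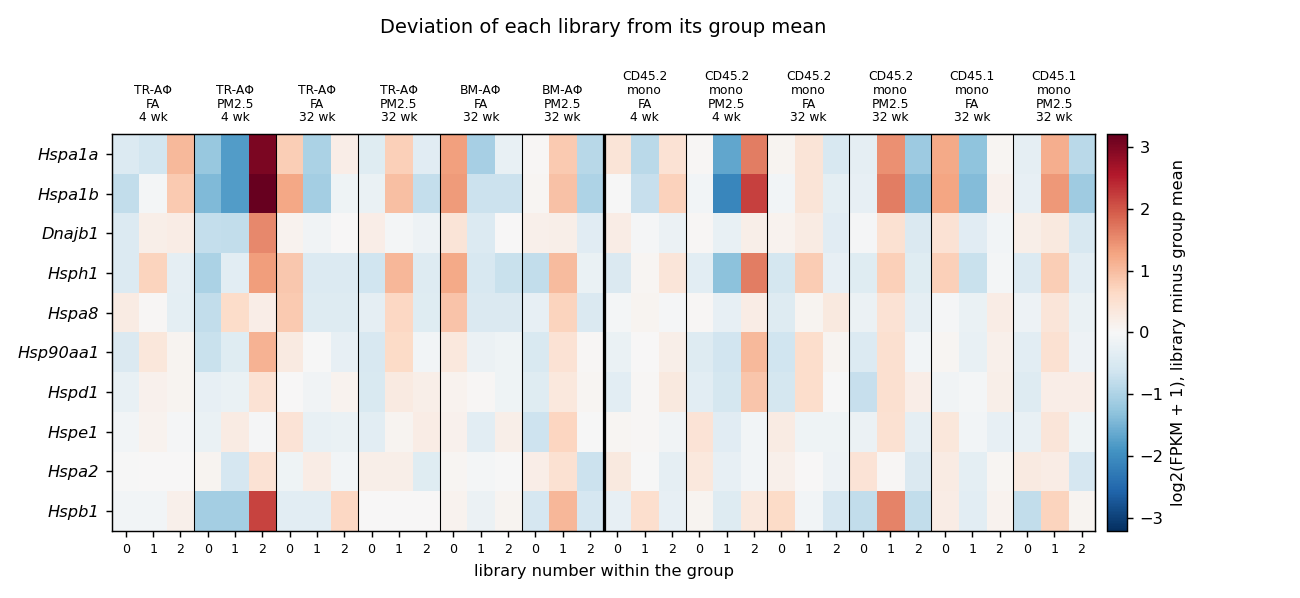
Deviation of each library from its group mean, in log2(FPKM + 1), for the 10 members (rows) in all 36 libraries (columns, numbered 0, 1 and 2 within each group), with red above and blue below the group mean. The deepest red is in Hspa1a and Hspa1b of PM2.5 TR-AΦ number 2 at 4-weeks, and at 32-weeks the red columns are mostly number 0 in FA and number 1 in PM2.5.

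The number of the highest library was compared across cell populations of the same exposure and time. For Hspa1a, Hspa1b and their sum, the highest library carried the number most common for that exposure and time in 11 of 12 groups. This count cannot be below 6, its median over 13307 genes was 8, and 9.39% of genes reached 11 or more. For Hsph1 it was 10, which 21.2% of genes reached, and for the other tested members it was 8 or 9, near the median. AΦ and monocyte libraries of the same origin, exposure, time and number form 18 such pairs. Their deviations had r of 0.79 for Hspa1b, 0.77 for Hspa1a, 0.76 for Hspd1, 0.73 for Hsp90aa1, 0.65 for Hspa2 and 0.64 for Hsph1, and lower values for Hspe1 (0.34), Dnajb1 (0.33), Hspb1 (0.22) and Hspa8 (0.08). The median over 12887 genes was 0.23. For Hspa1a the value was 0.70 over the 17 pairs left without the PM2.5 pair number 2 of 4-weeks, and for Hspa1b it was 0.66. Between TR-AΦ and BM-AΦ of the same exposure and number at 32-weeks, 6 pairs, r was above 0.89 for Hspa8, Hsph1, Hsp90aa1, Hspa1b and Hspa1a. The labels do not say that a number stands for the same mouse, sorting day or batch, so this is a description with no test.

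AΦ and monocytes differed in the inducible Hsp70 genes at 32-weeks, where the monocyte level was higher. The 12 AΦ and 12 monocyte libraries were sorted from 3 mice per exposure, while the p-values given here treat them as separate samples. Over these libraries, Hspa1a ran from 3.13 to 28.3 FPKM (median 7.72) in AΦ and from 21.4 to 139 FPKM (median 57.3) in monocytes, and Hspa1b from 2.57 to 39.1 FPKM (median 8.37) and from 18.1 to 156 FPKM (median 59.7). The ranges overlapped through FA BM-AΦ number 0 and, for Hspa1b, also FA TR-AΦ number 0. The sum of both genes ran from 5.86 to 67.4 FPKM (median 15.3) in AΦ and from 39.7 to 295 FPKM (median 117) in monocytes. On the log2(FPKM + 1) scale Hspa1a was lower in AΦ by a difference of -2.81 ± 0.49 (SE), 7.02-fold (limma, adjusted p = 1.77e-05). Hspa1b had a difference of -2.62 ± 0.55 (SE), 6.13-fold (adjusted p = 0.000181). Dnajb1 was 15.4 to 32.3 FPKM (median 22.1) in AΦ and 28.9 to 57.8 FPKM (median 43.9) in monocytes, with the groups overlapping only narrowly. Its difference was -0.97 ± 0.20 (SE), 1.96-fold (adjusted p = 0.000128). Hspa2 was 3.41 to 8.97 FPKM (median 6.97) in AΦ and 6.61 to 17.2 FPKM (median 12.4) in monocytes, a difference of -0.72 ± 0.14 (SE) (adjusted p = 7.65e-05). Hspd1 differed the other way, 25.2 to 55.96 FPKM (median 40.6) in AΦ and 11.2 to 31.1 FPKM (median 18.5) in monocytes, a difference of 1.04 ± 0.17 (SE), 2.06-fold (adjusted p = 5.67e-06). In all, 5 of the 9 tested members passed the threshold at 32-weeks, 4 lower and 1 higher in AΦ, where 61.0% of all 13307 genes tested passed it. The members' share is therefore near the background, and fewer transcripts per cell and fewer cells of a type within a sort cannot be told apart in bulk libraries.

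Hsph1, Hspa8, Hsp90aa1 and Hspe1 did not pass at 32-weeks. The difference was 0.46 for Hsph1 (95% interval -0.27 to 1.18), -0.28 for Hspa8 (-0.69 to 0.13), 0.13 for Hsp90aa1 (-0.31 to 0.57) and 0.25 for Hspe1 (-0.03 to 0.54). Hspe1 passed, at 0.34, when the PM2.5 BM-AΦ library number 0 was left out (adjusted p = 0.0267). None of the 9 tested members had ranges that did not overlap, against 18.4% of all genes.

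At 4-weeks Hspe1 and Hspa2 passed between the cell types whichever library was left out. Which other members passed depended on the libraries kept and on the processing. With all 6 AΦ and 6 monocyte libraries, 2 of the 9 tested members passed, where 48.2% of 13307 genes did. Hspe1 was 19.2 to 27.7 FPKM (median 21.0) in AΦ and 9.89 to 18.8 FPKM (median 11.2) in monocytes, a difference of 0.79 ± 0.20 (SE), 1.73-fold (limma, adjusted p = 0.00143). It was the only tested member whose ranges did not overlap, against 29.8% of all genes. Hspa2 was 5.23 to 14.02 FPKM (median 5.89) in AΦ and 10.1 to 17.3 FPKM (median 12.6) in monocytes, with some overlap, and differed by -0.76 ± 0.20 (SE) (adjusted p = 0.00248). Hspa1a differed by -1.06 (adjusted p = 0.221) and Hspa1b by -1.45 (adjusted p = 0.129) and did not pass. Without the PM2.5 TR-AΦ library number 2, 6 members passed, among them Hspa1a at -1.81 (adjusted p = 0.0155), Hspa1b at -2.25 (adjusted p = 0.00904), Dnajb1 at -0.62 (adjusted p = 0.0128) and Hsp90aa1 at -0.77 (adjusted p = 0.0272). Without both PM2.5 libraries number 2, 5 members passed, with Hspa1b at -1.71 (adjusted p = 0.0375), Dnajb1 at -0.57 (adjusted p = 0.031) and Hspd1 at 0.58 (adjusted p = 0.0375) beside Hspe1 and Hspa2, while Hspa1a, at -1.404 (adjusted p = 0.0582), and Hsp90aa1, at -0.51 (adjusted p = 0.11), did not pass. Single libraries also decided Hspa8, which passed at 0.74 without PM2.5 TR-AΦ number 0 (adjusted p = 0.0344), Hspa1b, at -1.98 without PM2.5 monocyte number 1 (adjusted p = 0.0403), and Hspd1, at 0.70 without PM2.5 monocyte number 2 (adjusted p = 0.0111). With all libraries, Hspa8 at 0.54, Hspd1 at 0.48, Hsp90aa1 at -0.49, Dnajb1 at -0.23 and Hsph1 at -0.02 did not pass. Hspa8 and Hspd1 did pass with quantile normalization. Hspa1a, Hspa1b, Hsp90aa1 and Hspd1 passed with the replicate number as a block in the model.

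**Figure D3:**
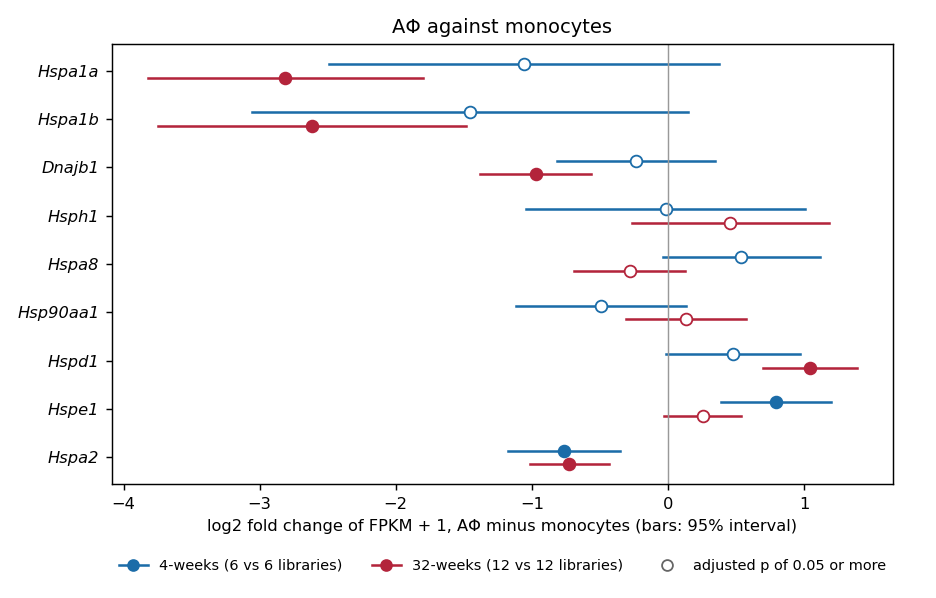
Difference between AΦ and monocytes (log2 fold change of FPKM + 1, AΦ minus monocytes, x axis) for the 9 tested members at 4-weeks (blue, 6 against 6 libraries) and 32-weeks (red, 12 against 12), with 95% intervals and filled points where the adjusted p was under 0.05. Hspa1a and Hspa1b lie farthest to the left at 32-weeks (-2.81 and -2.62) and Hspd1 farthest to the right (1.04). The libraries of each time were sorted from 3 mice per exposure and are treated as separate samples.

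Related chaperone families were mostly higher in AΦ where they differed. Over all genes, 3011 were higher and 3397 lower in AΦ at 4-weeks, the 48.2% given above, and 4211 were higher and 3908 lower at 32-weeks, the 61.0%. Of 9 genes of mitochondrial protein folding and degradation, which work beside Hspd1 and Hspe1, 6 were higher in AΦ at 4-weeks and 9 at 32-weeks, with none lower, and the median difference was 0.63 and 0.69, against -0.02 and 0.02 over all genes. They included Hspa9, the mitochondrial Hsp70 (0.95 at 4-weeks, 0.89 at 32-weeks), Clpp, a subunit of a matrix protease (0.93 and 0.91), and Trap1, the mitochondrial Hsp90 (0.85 and 0.82). Of 19 tested co-chaperones of Hsp70 and Hsp90, 7 were higher and 1 lower at 4-weeks, and 14 were higher and none lower at 32-weeks, with Cacybp (0.97), Unc45a (0.82) and Sgta (0.67) leading at 32-weeks. Of 16 endoplasmic reticulum chaperones and unfolded protein response genes, 11 were higher and 2 lower at 4-weeks and 12 higher and 2 lower at 32-weeks. Pdia4, a disulfide isomerase, led this list at 4-weeks (1.88) and at 32-weeks (1.34). Of the 8 other Hsp70 family genes tested, 3 were higher and 1 lower at 4-weeks, and 6 higher and 1 lower at 32-weeks, with Hspa12a at 4.55 and 4.16 and Hspa14 at -0.88 and -0.89. Of the 3 other Hsp90 genes, 2 and 3 were higher. The lists share genes, among them Hspa9, Trap1 and Hsp90b1, and a shared gene is counted in each of its lists. The 14 J-domain genes were divided, 3 higher and 3 lower at 4-weeks and 5 higher and 4 lower at 32-weeks, with Dnajb4 lower at either time (-1.11 and -1.59). Of the 8 subunits of the cytosolic chaperonin TRiC, 1 was higher at 4-weeks and 3 at 32-weeks, and of 2 heat shock factor genes tested, Hsf2 was lower at 4-weeks (-0.85) and none passed at 32-weeks. Of 6 small heat shock protein genes in the table besides Hspb1, Hspb6 alone was tested, and it was higher at 4-weeks (1.399) and 32-weeks (1.04). Immediate early genes, which respond quickly to many stimuli, mostly went the way of Hspa1a and Hspa1b. Of 20, 12 were lower and 3 higher in AΦ at 4-weeks, and 16 lower and 2 higher at 32-weeks. The largest difference at 4-weeks was that of Egr2, which was higher in AΦ (3.10), before Socs3 (-2.99) and Klf2 (-2.88). Socs3 was at -4.22 at 32-weeks. The lists were not compared with each other by a test.

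The summed Hspa1a and Hspa1b level of TR-AΦ was lower at 32-weeks than at 4-weeks. Taken singly, neither gene passed the threshold over all genes, as given below. The sum of Hspa1a and Hspa1b was 47.2, 61.0 and 143 FPKM with FA and 45.16, 32.4 and 1023 FPKM in PM2.5 at 4-weeks, and 35.5, 6.74 and 16.7 FPKM with FA and 7.45, 19.2 and 5.86 FPKM in PM2.5 at 32-weeks. FA number 0 at 32-weeks was the only later library above an earlier one, PM2.5 number 1. With exposures pooled, 6 against 6 libraries, the mean difference was -2.80 on the log2(FPKM + 1) scale, 6.98-fold lower at 32-weeks (exact two-sided permutation test over 924 splits, p = 0.00433, the smallest possible p being 0.00216). This p is for the sum alone and is not adjusted over genes, and the members were chosen with earlier results of these data known. With each library dropped in turn the difference was -3.10 to -2.11, the latter without PM2.5 number 2 of 4-weeks (exact permutation p = 0.00649). In CD45.2 monocytes the same sum was 236, 123 and 333 FPKM with FA and 242, 64.8 and 996 FPKM in PM2.5 at 4-weeks, and 162, 215 and 121 FPKM with FA and 81.5, 295 and 39.7 FPKM in PM2.5 at 32-weeks. These ranges overlapped, and the difference was -0.87, 1.82-fold (exact permutation p = 0.24). Without PM2.5 monocyte number 2 of 4-weeks it was -0.45. Time cannot be told apart from the age of the mice, the interval since transplantation, and the day and conditions of sorting.

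Gene by gene, none of the 9 tested members passed the threshold for time in TR-AΦ when p-values were adjusted over all genes. In FA, where 0.782% of 12665 genes passed, 8 of 9 members had a lower estimate at 32-weeks, as had 47.0% of all genes. The median difference was -0.72, against 0.01 over all genes. An unadjusted p under 0.05 was reached by 0 members and by 1535 of the 12665 genes. Hspa1a had -2.05 (95% interval -4.25 to 0.16), Hspa1b -2.07 (-4.44 to 0.29), Hspa8 -0.94 (-1.99 to 0.11), Dnajb1 -0.86 (-1.86 to 0.14), Hsph1 -0.72 (-2.24 to 0.80) and Hsp90aa1 -0.37 (-1.27 to 0.54). In PM2.5, where 1.05% of genes passed, all 9 estimates were lower, with a median of -1.42 against 0.03 over all genes. Of all genes, 44.4% had a lower estimate. An unadjusted p under 0.05 was reached by 6 members and by 1928 of the 12665 genes. The largest were those of Hspa1b (-3.43 ± 1.10 SE, limma, adjusted p = 0.157) and Hspa1a (-3.26 ± 1.03 SE, adjusted p = 0.148). Hsph1 gave -1.84 (adjusted p = 0.231), Dnajb1 -1.56 (adjusted p = 0.129), Hspa8 -1.42 (adjusted p = 0.188) and Hsp90aa1 -1.11 (adjusted p = 0.222). Hspe1 gave -0.57, Hspa2 -0.55 and Hspd1 -0.35. Without PM2.5 TR-AΦ number 2 of 4-weeks these estimates were -1.83 for Hspa1b, -1.76 for Hspa1a, -1.16 for Hsph1, -0.79 for Dnajb1, -1.32 for Hspa8 and -0.56 for Hsp90aa1, with -0.59 for Hspe1, -0.32 for Hspa2 and -0.11 for Hspd1, and the median was -0.79. The ranges of the 6 TR-AΦ libraries at each time did not overlap for 2 of the 9 tested members, Dnajb1 (29.8 to 168 FPKM at 4-weeks, 16.8 to 23.7 FPKM at 32-weeks) and Hspa1a (14.4 to 425 FPKM and 3.13 to 13.5 FPKM), against 3.86% of all genes.

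In CD45.2 monocytes none of the 9 tested members passed for time either, in FA (7.21% of 12856 genes passed) or in PM2.5 (2.42%). An unadjusted p under 0.05 was reached by 2 members in FA and 3 in PM2.5. Of all 12856 genes, 2677 and 2072 reached it. Hsp90aa1 came nearest, at -1.26 ± 0.41 (SE) in FA (limma, adjusted p = 0.0839) and -1.24 ± 0.41 (SE) in PM2.5 (adjusted p = 0.13), and it was the only tested member whose ranges at the 2 times did not overlap, against 7.72% of genes. Hsph1 had -1.41 in FA and -1.76 in PM2.5, Hspa1b -0.80 and -1.58, and Hspa1a 0.13 and -0.996. Without both PM2.5 libraries number 2 of 4-weeks, the PM2.5 values were -0.72 for Hsp90aa1, -0.94 for Hsph1, -0.48 for Hspa1b and -0.18 for Hspa1a. The interstitial macrophage sums given above, higher in CD45.2 monocytes at 32-weeks than at 4-weeks, moved with time in this comparison, and their part was not tested. The change with time was then compared between the cell types. The difference, TR-AΦ minus CD45.2 monocytes, was -2.22 for Hspa1a (95% interval -4.25 to -0.20, adjusted p = 0.193), -1.56 for Hspa1b (-3.83 to 0.70) and 0.51 for Hsp90aa1 (-0.37 to 1.39), and no member passed, where 7.88% of 13307 genes did. The unadjusted p was under 0.05 for 3 members and for 2702 of the 13307 genes. With the replicate number as a block in the model, Hspa1a (limma, adjusted p = 0.00456) and Hspa1b (0.0376) passed. Without PM2.5 TR-AΦ number 2 of 4-weeks the difference was -1.47 for Hspa1a (adjusted p = 0.336), -0.76 for Hspa1b and 0.78 for Hsp90aa1.

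**Figure D4:**
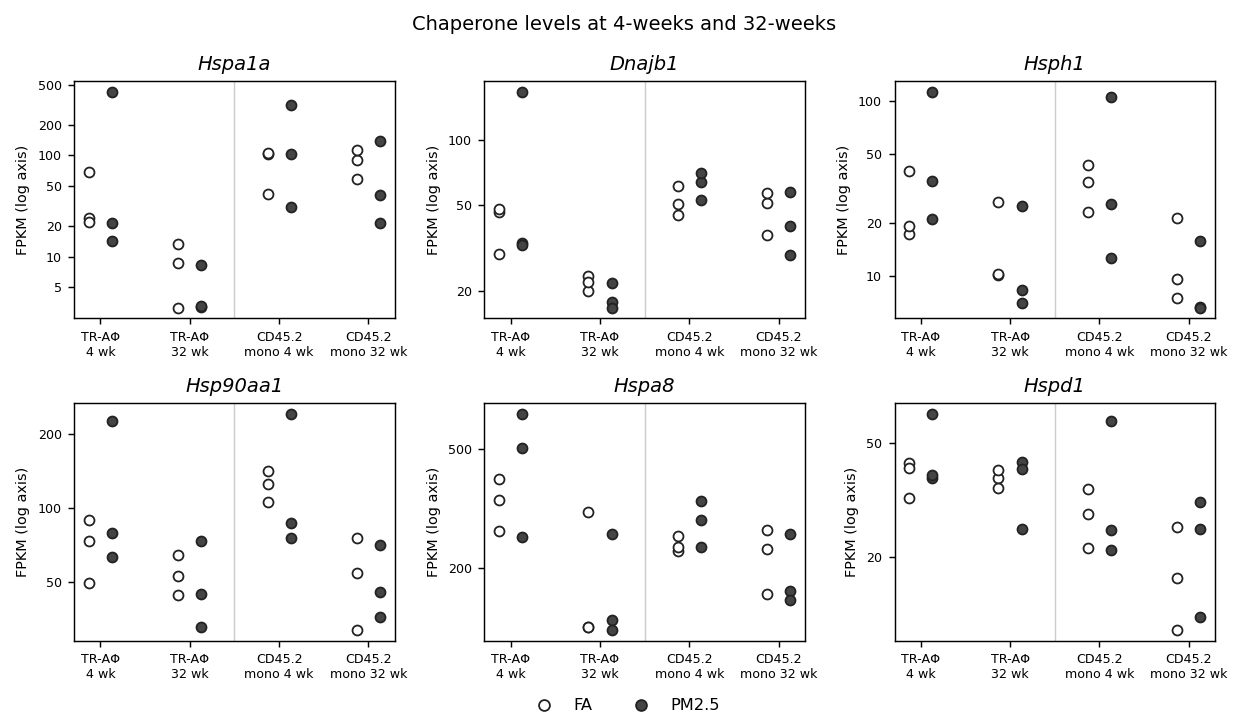
FPKM on log axes for 6 members at 4-weeks and 32-weeks in TR-AΦ and CD45.2 monocytes, with open points for FA and filled points for PM2.5 libraries, 3 of each per group. Dnajb1 and Hspa1a separate the times in TR-AΦ, Hsp90aa1 separates them in monocytes, and the highest 4-weeks point is PM2.5 number 2 in each cell type, except for Hspa8 in TR-AΦ.

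Among related genes few passed for time. Of the immediate early genes, 3 of 20 were lower at 32-weeks in TR-AΦ in FA and 3 in PM2.5, and they were the transcription factor Egr1 (-2.34 in FA, -3.19 in PM2.5), Ppp1r15a, a phosphatase subunit that ends the stress block on translation (-2.003 and -2.17), and Ier2 (-1.66 and -1.77). In CD45.2 monocytes 1 of the 20 was higher and 2 lower in FA, and 2 were lower in PM2.5. Myc was higher in FA (1.68), while Ppp1r15a (-1.49 and -1.58), Nr4a1 (-1.46 in FA) and Zfp36 (-0.96 in PM2.5) were lower. Atf4, a transcription factor of the integrated stress response, was lower as well (-0.99 and -0.90). The co-chaperone Fkbp5, an Hsp90 partner induced by glucocorticoids, was higher at 32-weeks in FA, by 1.85 in TR-AΦ and 3.32 in monocytes. Hspb6 was higher in FA monocytes (1.59). The part of the immediate early response in the chaperone values was not tested. None of the TR-AΦ comparisons over time called a gene among the other Hsp70, J-domain, other Hsp90, TRiC, heat shock factor, endoplasmic reticulum or mitochondrial lists.

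None of the 9 tested members passed the threshold between PM2.5 and FA in any cell population (limma, adjusted p over all genes). Few genes of any kind passed in these comparisons: 0.00790% in TR-AΦ at 4-weeks, 0 in TR-AΦ at 32-weeks, 0.0158% in BM-AΦ at 32-weeks, 0.00778% in CD45.2 monocytes at 4-weeks, and 0 in CD45.1 and in CD45.2 monocytes at 32-weeks. At an unadjusted p under 0.05 the member counts were 1 in TR-AΦ at 4-weeks, Hspa2, and 0 in the other 5 comparisons. In TR-AΦ at 4-weeks 372 of 12665 genes reached it. Lower estimates in PM2.5 made up 53.9% of all genes in TR-AΦ at 4-weeks. There the estimates of all 9 members were higher in PM2.5, with a median of 0.59 against -0.02 over all genes. Without PM2.5 number 2 the members' median was 0.04. Hspa1b had 0.65 with that library and -0.94 without it, and Dnajb1 0.48 and -0.29. Hspa2 kept its direction, with a difference of 0.79 (95% interval 0.19 to 1.399, limma, adjusted p = 1) that was 0.56 without number 2. In TR-AΦ at 32-weeks all 9 estimates were lower in PM2.5, with a median of -0.22, and in BM-AΦ 7 were lower and 2 higher. Of all genes, 48.7% were lower in the former and 52.5% in the latter. In CD45.2 monocytes 7 of 9 were higher at 4-weeks (median 0.19, and -0.26 without both PM2.5 libraries number 2) and 7 lower at 32-weeks (median -0.21), and in CD45.1 monocytes 7 were lower. The shares of all genes with lower estimates were 51.1%, 45.0% and 44.3% in these comparisons, in that order. The PM2.5 effect in TR-AΦ was lower at 32-weeks than at 4-weeks in the estimates of all 9 members (median -0.75, and -0.19 without PM2.5 number 2 of 4-weeks). None passed, where 0.00790% of genes did. An unadjusted p under 0.05 was reached by 1 member and by 380 of 12665 genes, and 45.7% of all genes had a lower estimate.

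Origin made no detectable difference to the members. Between BM-AΦ and TR-AΦ at 32-weeks, both exposures together, none of the 9 tested members passed, where 0.316% of genes did. Hspa1a was 3.24 to 28.3 FPKM (median 8.07) in BM-AΦ and 3.13 to 13.5 FPKM (median 5.79) in TR-AΦ, and the difference was 0.51 (95% interval -1.04 to 2.07). Hspa1b differed by 0.49 (-1.18 to 2.16) and Hspd1 by 0.20 (-0.16 to 0.56), and the ranges overlapped for all 3 genes. Between CD45.2 and CD45.1 monocytes at 32-weeks none passed, where 0.669% of genes did, and Hspa1a, at medians of 74.4 and 45.6 FPKM, differed by 0.42 (95% interval -0.89 to 1.73). The interstitial macrophage sum also differed between these origins, 858 to 3290 against 308 to 1022, and its part was not tested. In neither comparison did a member reach an unadjusted p under 0.05 (0 of 9 in each). Between the AΦ origins 944 of 12665 genes reached it, and between the monocyte origins 1233 of 12856.

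The genes outside the members whose library-to-library deviations were most like the reference of Hspa1a, Hspa1b, Dnajb1 and Hsph1, over 36 libraries, were Cd83 (r = 0.88), Herpud1 (0.87), Rgs1 (0.87), Ywhah (0.83), Cxcr4 (0.82), Klf6 (0.81), Prpf38b (0.81), Rnf19b (0.79), Gm12346 (0.79) and Zfp36l1 (0.79). Cd83 is a surface marker of activated antigen-presenting cells, Rgs1 a regulator of chemokine receptor signalling, Cxcr4 a chemokine receptor, Klf6 a transcription factor of the immediate early list and Herpud1 a component of endoplasmic reticulum-associated degradation. Gm12346 is annotated as a transcribed processed pseudogene, and 83.3% of its 31-base words occur in Hsp90aa1, so its value may hold reads of that member. Without both PM2.5 libraries number 2 of 4-weeks, r for these 10 genes was 0.61 to 0.84, with Rgs1 highest and Gm12346 lowest. By list, the median r was 0.47 for 20 immediate early genes, 0.40 for 3 other Hsp90 genes, 0.35 for 16 endoplasmic reticulum genes, 0.34 for 14 J-domain genes, 0.33 for 19 co-chaperones and 0.30 for 8 other Hsp70 genes. It was 0.12 for 9 mitochondrial genes, 0.11 for 8 TRiC subunits and -0.02 for the heat shock factors Hsf1 and Hsf2. Bag3, a co-chaperone known to be induced with Hsp70, had 0.74, and Hsp90ab1, the constitutive cytosolic Hsp90, had 0.75. The mean log2 level of the immediate early genes was highest among AΦ in PM2.5 TR-AΦ number 2 at 4-weeks (8.09), the library with the most Hspa1a and Hspa1b. In some groups the highest libraries differed. With PM2.5 at 32-weeks number 1 led for the Hspa1a and Hspa1b sum but was below number 0 for these genes in TR-AΦ (6.94 against 7.10), BM-AΦ (7.13 against 7.24) and CD45.1 monocytes (7.91 against 7.94). In FA monocytes at 4-weeks number 2 led for the sum, but number 0 for these genes (8.45 against 8.58). In every remaining group 1 library led for both.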

How the data were processed

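Lung AΦ and monocytes were sorted by flow cytometry from 3 mice per exposure and time and sequenced from a SMART-Seq stranded mRNA library. The authors trimmed reads with TrimGalore, aligned them to mm10 with STAR and estimated FPKM with Cufflinks on a GENCODE annotation, and the FPKM are used as deposited. Genes with a mean FPKM of at least 1 were tested on log2(FPKM + 1) with limma 3.58.1 (R 4.3.3; empirical Bayes with trend), in models of 18 AΦ, 18 monocyte or all 36 libraries. P-values were adjusted by Benjamini-Hochberg within each of 16 comparisons at 0.05, and all fold changes refer to this scale, which understates the change of low genes. The sum of Hspa1a and Hspa1b was compared by an exact permutation test. The code was tested on simulated data. All 10 members are named, with at most 3 genes per related list and comparison, the largest of those passing, and the 10 genes most like the members. The members and lists were chosen with earlier results of these data known. Alternatives were a pseudocount of 0.1, no filter, quantile normalization, only the compared libraries in the model, Hspa1a and Hspa1b summed, the replicate number as a block, and each library left out. Leaving out both PM2.5 libraries number 2 of 4-weeks was chosen after seeing the data. Sequence comparisons used RefSeq promoters (GRCm38.p6) and GENCODE annotation, and figures matplotlib 3.10.9.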

Additional observations from a re-analysis of the deposited data

Results flagged for a closer look

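Each of the 10 genes was tested for a library far from the others in arms of 6 libraries, both exposures of a cell population at a time (Dixon's criterion, 60 tests, critical ratio 0.625). The ratios were taken on log2(FPKM + 1), while FPKM are printed here. A library stood apart in 5 of the 60 tests, where chance gives about 5% of tests for values away from 0. Of these 5, 2 fell in the PM2.5 TR-AΦ library number 2 at 4-weeks. In that library Dnajb1 was 168 FPKM, against 48.2 FPKM in the next library, and Hspb1 was 8.51 FPKM, against 0.187 FPKM. Hspa1a (425 FPKM) and Hspa1b (598 FPKM) were highest in that library too, but did not reach the critical ratio on the log2 scale. Hspb1 was also 0.98 FPKM in FA TR-AΦ number 2 at 32-weeks, where the other 5 libraries were listed at 0. With the others at 0, any value above 0 would have been flagged. The 5% rate therefore does not apply to Hspb1, which was listed at 0 in 18 of 36 libraries. In PM2.5 BM-AΦ number 1 at 32-weeks Hspb1 was 2.03 FPKM, against 0.233 FPKM in the next library. Hspa2 was lowest, at 3.41 FPKM, in PM2.5 BM-AΦ number 2 at 32-weeks, where the next library had 6.49 FPKM.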

How the results depend on the processing

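Most results kept their direction and their side of the threshold, and the members' exceptions are given here or beside their results, with causes not tested. Without PM2.5 TR-AΦ number 2 at 4-weeks, or without both PM2.5 libraries number 2 of 4-weeks, the PM2.5 difference in TR-AΦ at 4-weeks was -0.94 for Hspa1b and -0.29 for Dnajb1, and over all libraries left out in turn it ran from -0.94 to 1.55 and from -0.29 to 0.87. In the same way the time difference of Hspa1a in FA monocytes ran from -0.30 to 0.38, and the AΦ to monocyte difference of Hsph1 at 4-weeks from -0.35 to 0.39 (0.058 without both number 2 libraries). Quantile normalization gave 0.20 for Hsph1 and 0.044 for Dnajb1 in that comparison. With it Hspa8, at 0.97 (limma adjusted p = 0.00709), and Hspd1, at 0.70 (0.00662), passed. The number of members passing in AΦ against monocytes at 4-weeks, 2 with all libraries, was 4 with quantile normalization, 5 without both number 2 libraries, and 2 to 6 with each library left out. At 32-weeks it was 5, and 5 to 6 with each library left out, Hspe1 passing at 0.34 without PM2.5 BM-AΦ number 0 (limma adjusted p = 0.0267).

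The labels do not say what a replicate number stands for. Over 42 pairs of libraries with the same number, exposure and time in different cell populations, the correlation of deviations was -0.0415 to 0.155 (median 0.0372, 2 pairs over 0.1). Over 84 such pairs with different numbers the median was -0.0210 (1 over 0.1). Over 18 same-number pairs of FA against PM2.5 in 1 population and time it was 0.0710 (4 over 0.1). These values do not decide whether a number marks a shared mouse or batch, so the main tests did not use it. With the replicate block, 6 members passed in AΦ against monocytes at 4-weeks, among them Hspa1a (limma adjusted p = 0.0128), Hspa1b (0.00133), Hsp90aa1 (0.0162) and Hspd1 (0.00647). At 32-weeks Hspe1 passed as well (0.25, adjusted p = 0.0392). For time, 1 passed in FA monocytes (Hsp90aa1, adjusted p = 0.0493), and 2 passed for the difference of the time change between cell types, Hspa1a (adjusted p = 0.00456) and Hspa1b (0.0376). Counts of genes passing also moved. For time they were 133 in PM2.5 TR-AΦ, 99 in FA TR-AΦ, 927 in FA monocytes and 311 in PM2.5 monocytes. They became 381, 197, 1473 and 618 with the block, 18, 15, 270 and 15 with only the compared libraries in the model, and at lowest 54, 50, 344 and 55 with a library left out, where the first could also reach 251. Without PM2.5 TR-AΦ number 2 of 4-weeks the first was 73. Between BM-AΦ and TR-AΦ 40 genes passed, and 15 to 78 under the alternatives, and between CD45.2 and CD45.1 monocytes 86, and 45 to 152. For the time change compared between cell types, 1049 passed, or 1808 with the block. In the PM2.5 against FA comparisons, where at most 2 genes passed, the alternatives gave at most 11, and no member passed under any of them. FPKM keeps no counts, so the precision of low values, such as those of Hspb1, cannot be computed.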
